A study of Mus musculus with 6 samples.

Results

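The genes described here make and pack peptide hormones. They are the prohormone convertases Pcsk1 and Pcsk2, the carboxypeptidase Cpe, the amidating enzyme Pam, the convertase chaperone Scg5 and the granins Chga, Chgb, Scg2 and Scg3. Members were all probe sets whose only gene symbol is one of these 9 genes. They are 9 of 22626 probe sets and cover 8 of the 9 genes, or 8 of the 12393 genes that a probe set of the array names alone. The annotation used assigns none to Pcsk2. The tissue is the paraventricular nucleus of the hypothalamus (PVN) of C57Bl/6 mice, cut out by laser from 7 µm frozen sections. The labels give no age or sex. The groups are mice killed 2 h after a single electroconvulsive seizure (ECS), mice killed 6 h after ECS, and sham mice killed 2 h after handling, with 2 arrays each. ECS was given under isoflurane through ear clips, at 25 mA for 1 s with 100 pulses per s and a pulse width of 0.5 ms, and shams were handled alike with no current. Each array is a pool of RNA from 2 to 3 animals, 2 ng of RNA was amplified for it, and the study held 2 runs of the arrays, each on other animals. No sham mice were killed at 6 h, so at 6 h the time after the seizure and the hour of collection cannot be told apart.

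Peptide hormones are made as long precursors that enter secretory granules. In the maturing granule a convertase cuts the precursor at paired basic residues, Cpe trims the basic residues left at the new end, and Pam turns a terminal glycine into an amide, a step that oxytocin, vasopressin and thyrotropin-releasing hormone need. Granins are acidic proteins that aggregate with the cargo, help granules to form and are themselves cut into peptides. In the PVN this machinery serves the magnocellular neurons, which send oxytocin and vasopressin to the posterior pituitary, and the smaller neurons that control the anterior pituitary.

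Several of these genes are known targets of CREB, a factor that neuronal activity switches on and that binds the cyclic AMP response element (CRE). The sequences are shown because the element lies close to the start of 3 members, Pcsk1, Scg2 and Chgb. Of these, Pcsk1 and Scg2 were above sham and Chgb below it. Pam and Scg5 were above sham too, and their windows lack the full element. A link between the element and these changes was not tested. RefSeq windows of build GRCm38.p6 were scanned on both strands over the 250 bases upstream of the transcription start, 32851 windows in all. Of the members, 8 had a window, Pcsk2 among them, and Cpe had none. The palindrome TGACGTCA occurred in 1.55% of all windows, or 1.77% of all genes with a window. It was in the windows of 3 of the 8 members, Pcsk1, Chgb and Scg2, where it begins 78, 72 and 68 bases before the start. Each is printed 5′ to 3′ in the direction of transcription, with the element in capitals and 30 bases on either side, from chr13:75089749-75089816 (plus strand), chr2:132781540-132781607 (plus strand) and chr1:79440057-79440124 (minus strand).
Pcsk1: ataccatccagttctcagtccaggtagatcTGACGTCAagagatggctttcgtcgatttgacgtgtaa
Chgb: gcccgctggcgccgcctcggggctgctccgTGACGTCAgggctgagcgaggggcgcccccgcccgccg
Scg2: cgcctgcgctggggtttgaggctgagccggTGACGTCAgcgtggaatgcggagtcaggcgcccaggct

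The half-site TGACG, which the palindrome holds on each strand, was in 17.8% of all windows, or 19.8% of all genes with a window. It was in the windows of 7 members. Scg5, Chga and Scg3 have it without the palindrome, 175, 44 and 30 bases before the start, and are shown with the half-site in capitals from chr2:113829232-113829296 (minus strand), chr12:102554867-102554931 (plus strand) and chr9:75684057-75684116 (minus strand). Pcsk2 has it on the reverse strand, and neither window of Pam holds it.
Scg5: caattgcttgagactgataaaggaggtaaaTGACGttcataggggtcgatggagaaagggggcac
Chga: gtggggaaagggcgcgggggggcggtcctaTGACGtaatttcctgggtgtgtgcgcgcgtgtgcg
Scg3: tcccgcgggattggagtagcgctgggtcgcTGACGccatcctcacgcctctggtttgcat

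The other motifs searched were in the windows of 0 of the 8 members. They were the AP-1 site TGACTCA (reverse TGAGTCA), in 4.46% of all windows, the Egr1 core GCGTGGG, in 4.3%, and the glucocorticoid half-site AGAACA, in 16.1%. By gene the shares were 5.16%, 4.94% and 18.2%. A match is a run of letters and not a shown binding site. Across the array, 191 of the 6010 tested genes with a window hold the palindrome. Of these, 46.1% were above sham at 2 h and 51.8% at 6 h, against 51.3% and 49.6% of all 6010.

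Signals are MAS5 values as deposited by the authors, and tests used limma on log2(signal + 16) after quantile normalization, with adjustment over all 12662 probe sets that passed a filter on dim signals. Of the 9 member probe sets 8 passed, 1 for each of the 8 genes. The exception, a second probe set of Cpe (1439437_x_at), lay between 4.1 and 14.2, below the median of its own array on all 6 arrays, and was not tested. Array medians were 25.2 to 32.6 at 2 h, 28.2 to 35.6 at 6 h and 25.6 to 40.8 in sham, higher in replicate 2 of every group. Replicate 1 of the 6 h group stood apart on the Gapdh signal ratio of the 3′ over the 5′ probe set, at 14.1. Elsewhere the ratio was 6.43 to 10.5, highest in sham replicate 1. On the same ratio for Actb the 6 h array did not stand apart, at 0.764 against 0.562 to 0.771 elsewhere. The tissue label was checked against PVN genes. Oxt (oxytocin), Avp (vasopressin), Trh and the PVN factor Sim1 passed the filter, while the hypothalamic factor Otp lay below the array median on all 6 arrays.

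Pcsk1 was above both sham arrays on all 4 ECS arrays, by 1.57-fold at 2 h and 1.62-fold at 6 h, and Scg2 was above sham by 1.52-fold and 1.64-fold, with overlap. Pam and Scg5 were also above sham at both times, Chga, Chgb and Scg3 were below it, and Cpe was at 0.939-fold of sham at 2 h and 1.01-fold at 6 h. None of the 8 passed limma at an adjusted p of 0.05 in any comparison, where 0% of all 12662 probe sets were called. With the replicate number in the model again 0 of 8 passed, beside 0.0316% of all probe sets at 2 h, 0% at 6 h, 0% for 6 h against 2 h and 0.0079% for both ECS groups. At an unadjusted p of 0.05 the count was 0 of 8 at 2 h, 1 at 6 h (Pcsk1), 0 for 6 h against 2 h and 1 for both ECS groups (Pcsk1), beside 4%, 3.76%, 3.44% and 4.2% of all probe sets. With the replicate number in the model it was 3 at 2 h (Pcsk1, Pam and Scg2), 2 at 6 h (Pcsk1 and Scg2), 0 for 6 h against 2 h and 2 for both ECS groups (Pcsk1 and Scg2), beside 6.52%, 6.27%, 5.69% and 6.52%. The smallest adjusted p of a member in limma was 0.999 at 2 h and 0.9997 at 6 h against sham, 0.999 at 6 h against 2 h, and 0.999 for both ECS groups against sham. The 95% intervals are wide, so these p-values do not show that the genes stayed at the sham level.

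**Figure D1:**
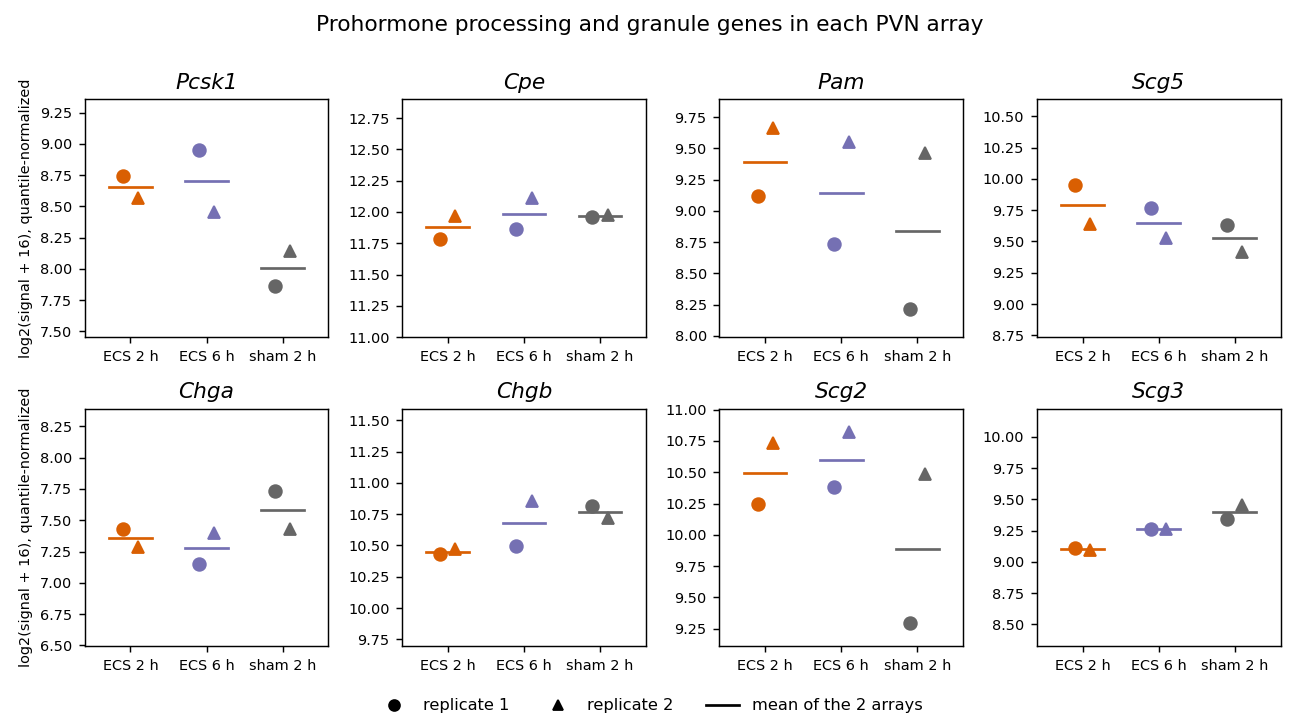
Log2(signal + 16) after quantile normalization for the 8 measured genes, by group (horizontal axis) and replicate number (circle 1, triangle 2), with bars at the mean of the 2 arrays. Each panel spans the same number of log2 units. The 4 ECS arrays of Pcsk1 lie above both sham arrays, while sham replicate 1 of Pam and of Scg2 lies far below sham replicate 2.

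Pcsk1 encodes the convertase PC1/3, which makes the first cuts in many neuroendocrine precursors. Its deposited signal was 336.4 and 387.6 at 2 h, 530.9 and 364.2 at 6 h, and 173.1 and 336.1 in sham (replicates 1 and 2). As deposited, the lowest ECS array and the higher sham array thus lie side by side, at 336.4 and 336.1, and the gap opens with the scaling between arrays. After normalization the lowest ECS array was 1.24-fold above the higher sham array. The log2 means were 8.65 ± 0.128 at 2 h, 8.70 ± 0.349 at 6 h and 8.0038 ± 0.203 in sham (SD, n = 2 each). Against sham the log2 change was 0.65 ± 0.315 at 2 h (SE, 95% interval -0.0464 to 1.35) and 0.697 ± 0.315 at 6 h (0.000273 to 1.39). With both ECS groups set against sham it was 0.674 ± 0.273 (0.0703 to 1.28, adjusted p = 0.999 in limma), higher on 4 of 4 ECS arrays. Between 6 h and 2 h it was 0.0467 ± 0.315, with an interval of -0.65 to 0.743, or 0.637-fold to 1.67-fold. Without replicate 1 of the 6 h group the change at 6 h was 0.443.

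Groups of 2 often separate in this way. Of all tested probe sets, 6.02% had all 4 ECS arrays above both sham arrays, as 1 member had (Pcsk1), and 6.85% had them below, as 1 member had (Scg3). At 2 h against sham 2 of 8 members were above without overlap (Pcsk1 and Scg5) and 2 below (Chgb and Scg3), against 16.3% and 16.4% of all probe sets. At 6 h against sham 1 was above (Pcsk1) and 2 below (Chga and Scg3), against 14.8% and 15.3%. At 6 h against 2 h 2 were above (Chgb and Scg3) and 0 below, against 14.4% and 15%. With 8 members these counts lie near the background.

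Scg5 encodes 7B2, the chaperone that escorts the convertase PC2 to the granule. Its deposited signal was 806.3 and 831.7 at 2 h, 957 and 764.7 at 6 h, and 625.5 and 804.4 in sham. Both 2 h arrays lay above both sham arrays, while the 6 h arrays spanned the higher sham array. Its log2 change was 0.269 ± 0.243 at 2 h (-0.268 to 0.806) and 0.124 ± 0.243 at 6 h (-0.413 to 0.661). It was 0.114 at 2 h without replicate 1 of that group and 0.164 without sham replicate 2, and at 6 h it was 0.003 without replicate 1 of that group and 0.0181 without sham replicate 2.

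Cpe, which trims the ends that convertases leave and also acts in sorting cargo to granules, varied little. Its deposited signal was 2994.5 and 4322.6 at 2 h, 4244 and 4766.8 at 6 h, and 3254.3 and 4378.6 in sham. The groups overlapped, and replicate 2 was brighter than replicate 1 in each. After normalization the 6 arrays spanned 1.25-fold, a range narrower than that of 96.5% of tested probe sets. Most of those probe sets are dimmer, as Cpe lay at the 99.4 to 99.6 percentile of signal on each array. Against sham the log2 change was -0.0903 ± 0.131 at 2 h (-0.379 to 0.199) and 0.0182 ± 0.131 at 6 h (-0.271 to 0.307). As folds these intervals run from 0.769 to 1.15 at 2 h and from 0.829 to 1.24 at 6 h, the narrowest of the members.

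Pam makes the terminal amide that oxytocin and vasopressin carry. Its deposited signal was 442.8 and 847.6 at 2 h, 452.3 and 777.8 at 6 h, and 225.6 and 830.6 in sham. Replicate 1 was the lower array in all 3 groups, and the 2 sham arrays lay further apart than either pair of ECS arrays. The sham arrays differed by 1.25 on the log2 scale, a gap larger than that of 94.7% of tested probe sets. Its log2 change was 0.55 ± 0.426 at 2 h (-0.393 to 1.49) and 0.306 ± 0.426 at 6 h (-0.637 to 1.25). It turned on sham replicate 1: without that array it was -0.069 at 2 h and -0.314 at 6 h, and without sham replicate 2 it was 1.18 and 0.937.

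Scg2 encodes secretogranin II, the precursor of secretoneurin. Its deposited signal was 1006.7 and 1846.2 at 2 h, 1505.1 and 1890 at 6 h, and 490.2 and 1631.2 in sham. The pattern was that of Pam, with sham replicate 1 far below the other 5 arrays and sham replicate 2 inside the ECS range. The log2 change was 0.602 ± 0.35 at 2 h (-0.17 to 1.37), 0.71 ± 0.35 at 6 h (-0.0621 to 1.48) and 0.656 ± 0.303 for both ECS groups together (-0.0126 to 1.33). Without sham replicate 1 it was 0.00539 at 2 h and 0.114 at 6 h, and without sham replicate 2 it was 1.21 and 1.32.

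The other granins lay slightly below sham at 2 h. Chgb, chromogranin B, had deposited signals of 1145.6 and 1505.1 at 2 h, 1632.1 and 1938.3 at 6 h, and 1462.4 and 1884.6 in sham. After normalization both 2 h arrays were below both sham arrays and below both 6 h arrays, while 6 h and sham overlapped. Its log2 change was -0.315 ± 0.188 at 2 h (-0.731 to 0.101), -0.0905 ± 0.188 at 6 h, and 0.225 ± 0.188 at 6 h against 2 h (-0.192 to 0.641).

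Scg3, secretogranin III, which links chromogranin A to the granule membrane, had deposited signals of 441.9 and 565.6 at 2 h, 656 and 633.6 at 6 h, and 509.7 and 825 in sham. After normalization its 3 groups did not overlap, with log2 means of 9.10 ± 0.0121 at 2 h, 9.26 ± 0.0011 at 6 h and 9.40 ± 0.0781 in sham (SD, n = 2 each). As deposited or with median subtraction the ECS and sham arrays overlapped. Its log2 change was -0.294 ± 0.246 at 2 h (-0.837 to 0.25), and -0.135 ± 0.246 at 6 h (-0.678 to 0.409), or 0.0164 with median subtraction.

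Chga, chromogranin A, the dimmest tested member, had deposited signals of 127.6 and 148.8 at 2 h, 128.1 and 169.5 at 6 h, and 156.7 and 195.9 in sham. After normalization both 6 h arrays were below both sham arrays, and the higher 2 h array was 0.00564 log2 units above the lower sham array. As deposited, the 6 h and sham arrays overlapped, at 169.5 for the higher 6 h array and 156.7 for the lower sham array. With median subtraction the highest ECS array lay below the lowest sham array, at 7.4008 against 7.4543 on the log2 scale. The log2 change was -0.221 ± 0.342 at 2 h (-0.977 to 0.534) and -0.304 ± 0.342 at 6 h (-1.06 to 0.451). Without sham replicate 1 it was -0.0696 at 2 h and -0.152 at 6 h. It was -0.145 at 2 h without replicate 2 of that group, and -0.18 at 6 h without replicate 1 of that group.

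**Figure D2:**
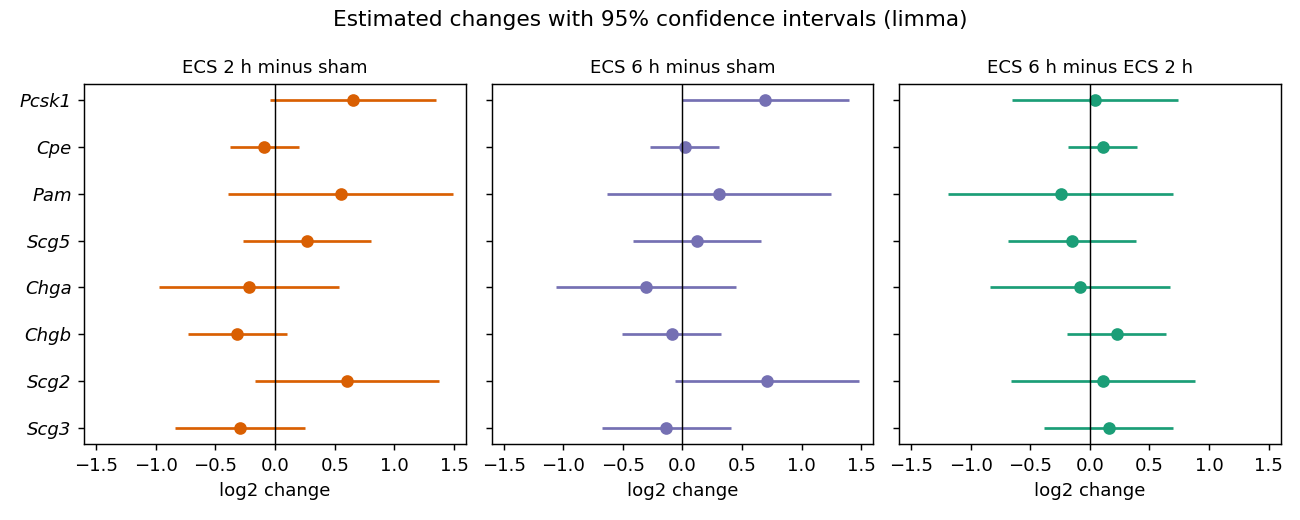
Log2 changes (points) with 95% confidence intervals from limma (lines) for ECS 2 h minus sham, ECS 6 h minus sham and ECS 6 h minus ECS 2 h. The interval of Pcsk1 at 6 h starts at 0.000273, and every other interval in the 3 panels holds 0. Intervals are widest for Pam and narrowest for Cpe.

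Taking the 8 genes as a list, 4 stood above sham at 2 h, beside 50.9% of all tested probe sets, and the list's median log2 change was 0.0894, against 0.00768 over all. For 6 h against sham 5 stood above, beside 49.6%, with a median of 0.0711, against -0.00321. For 6 h against 2 h 5 stood above, beside 49%, with a median of 0.0773, against -0.00807. With both ECS groups against sham 4 stood above, beside 50.2%, with a median of 0.0803, against 0.00229. The comparisons of 2 h and of 6 h with sham share the sham arrays and are not independent. Without sham replicate 1 the medians were -0.0693 at 2 h and -0.0145 at 6 h.

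The replicate number was read as the run, which the study's account implies and does not state. Within replicate 1 the log2 difference of Pcsk1 from sham was 0.884 at 2 h and 1.09 at 6 h, and within replicate 2 it was 0.417 and 0.307. That of Scg2 was 0.956 and 1.09 within replicate 1, and 0.248 and 0.335 within replicate 2. That of Pam was 0.899 and 0.521 within replicate 1, and 0.2 and 0.0902 within replicate 2. In each of these genes the difference was positive in both runs and larger in the first. At 2 h all 8 members differed from sham in the same direction in both runs, 4 higher and 4 lower, where 54.2% of all tested probe sets did so. At 6 h 6 of 8 did, against 51.7%, the exceptions being Cpe and Chgb, and between 6 h and 2 h 6 of 8 did, against 50.2%. The 2 h count takes in Cpe, which was only -0.00581 from sham within replicate 2. Under median subtraction the 2 h change of Cpe was 0.0505. The 8 genes do not vary independently of each other, so these counts were given no test.

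**Figure D3:**
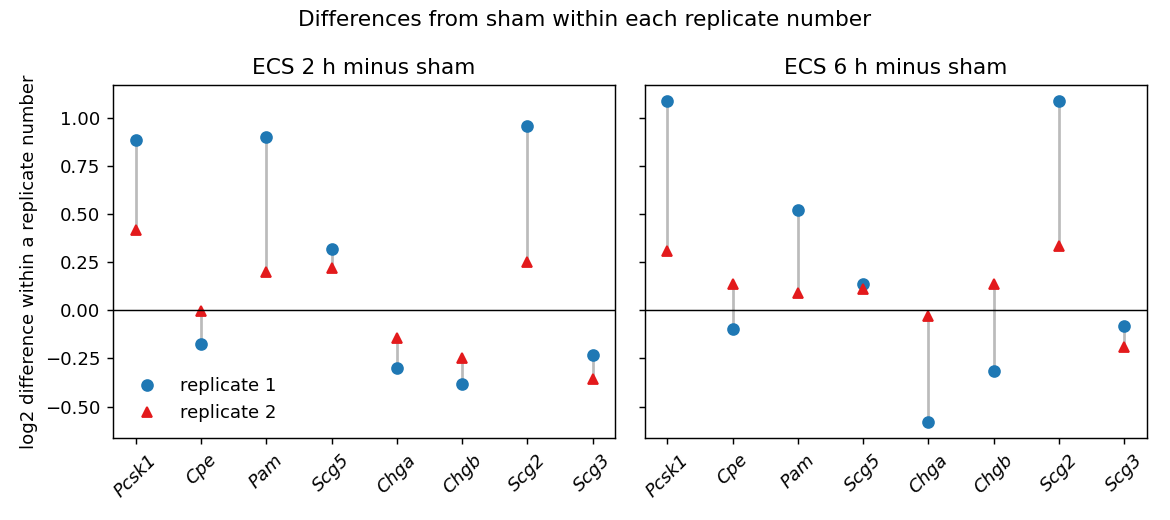
Log2 difference from the sham array of the same replicate number for each gene, at 2 h (left) and 6 h (right), with circles for replicate 1, triangles for replicate 2 and a line joining the 2. At 2 h both points of every gene lie on the same side of 0, though that of Cpe in replicate 2 is at -0.00581. For Pcsk1, Pam and Scg2 replicate 1 lies well above replicate 2.

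Likeness among the members was measured as the root mean square difference between their log2 values over the 6 arrays, each centred on its own mean. Cpe and Chgb were closest (0.11), followed by Chgb and Scg3 (0.123), while Pam and Scg2 formed a pair of their own (0.21). The measure is small for any 2 genes that vary little, so small values for these do not show a shared pattern. Over the 6 arrays the SD was 0.101 for Cpe, 0.17 for Chgb and 0.124 for Scg3. It was 0.503 for Scg2 and 0.51 for Pam. Pcsk1 was closest to Scg5 (0.291). Chga and Scg2 were the least alike (0.647). The values rest on 6 arrays that share runs and amplification, and describe these arrays only.

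By the same measure over all tested probe sets, the nearest to Pam was 1 probe set of Nr3c1, the glucocorticoid receptor (0.0561), set against an SD of 0.51 for Pam over the 6 arrays. The next were Arl2bp (0.106) and Ppargc1a (0.111). Scg2 was nearest to Slc39a11 (0.0997), Bzw2 (0.106) and Ptprj (0.109), dim probe sets with log2 values of 4.12 to 6.325, where 4 is the floor that the offset sets. Pcsk1 was nearest to Cib1 (0.0776), Wipi2 (0.095) and Cdh2, the adhesion protein N-cadherin (0.0985). The neighbours of Cpe included Hsp90b1, a chaperone of the endoplasmic reticulum (0.0399), and those of Chgb included App (0.0621). Those of Scg5 included Lgals8 (0.0369), those of Scg3 Tubb2a (0.0426) and those of Chga Rab7 (0.0425). These members varied little themselves, with SDs over the 6 arrays from 0.101 (Cpe) to 0.177 (Chga).

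The rest of the secretory pathway was described with lists. Of all tested probe sets, 50.9% were above sham at 2 h and 49.6% at 6 h, the background for the counts above sham that follow. Of 20 tested genes of other precursor processing and peptide-cleaving enzymes, 15 were above sham at 2 h and 15 at 6 h, with medians of 0.121 and 0.18. Without overlap, 7 were above at 2 h and 6 at 6 h, and 0 below at either time. Over all tested probe sets 16.3% were above and 16.4% below at 2 h, and 14.8% and 15.3% at 6 h. None of the 20 genes passed limma. Prcp, a lysosomal carboxypeptidase, was at 0.556 ± 0.396 at 2 h and 0.794 ± 0.396 at 6 h. Of 5 tested subunits of the signal peptidase complex, which removes the signal peptide of secreted precursors, 3 were above sham at 6 h without overlap, Spcs3 at 0.607 ± 0.294, Spcs1 at 0.38 ± 0.297 and Sec11c at 0.29 ± 0.168. Spcs2 at 0.219 ± 0.29 and Sec11a at 0.153 ± 0.341 overlapped with sham at 6 h, and Spcs2 was at -0.115 ± 0.29 at 2 h. The granule protein Pcsk1n (proSAAS), an inhibitor of PC1/3, was at 0.241 ± 0.353 at 2 h and 0.189 ± 0.353 at 6 h, and Furin, the convertase of the trans-Golgi, at 0.0963 ± 0.452 and -0.14 ± 0.452. Without sham replicate 2 the enzymes above sham were 11 of 20 at 2 h and 12 at 6 h, with medians of 0.0234 and 0.0623.

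Cargo precursors lay on both sides of sham. Of 18 tested, 12 were above sham at 2 h and 12 at 6 h, with medians of 0.172 and 0.215, or 0.0343 at 2 h without replicate 1 of that group, where 9 of 17 were above. Oxt had deposited signals of 1856.6 and 1993.1 at 2 h, 3285.9 and 2183.1 at 6 h, and 1494.5 and 1988 in sham. As deposited, the 2 h and sham arrays overlapped. After normalization both ECS groups were above sham without overlap, though at 2 h narrowly. The lower 2 h array was at 10.8601 and the higher sham array at 10.8463 on the log2 scale. The log2 change was 0.163 ± 0.19 at 2 h and 0.421 ± 0.19 at 6 h. Trh had deposited signals of 880.2 and 1560.4 at 2 h, 1001.3 and 1170.8 at 6 h, and 421.2 and 1252.1 in sham. Like Pam and Scg2, it was low on sham replicate 1. Cck was at -2.24 ± 0.555 at 2 h and -1.74 ± 0.555 at 6 h, with deposited signals of 6.8 and 8.7 at 2 h, 3.2 and 52.1 at 6 h, and 71.8 and 139.9 in sham.

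Of 33 tested genes of granule formation and release, 18 were above sham at 2 h and 14 at 6 h, with medians of 0.0132 and -0.056. At 6 h it was 24 of 33 without replicate 1 of that group (median 0.146) and 10 of 33 without sham replicate 1 (median -0.217). The 3 genes of smallest p at 2 h belong to the fusion machinery shared with synaptic vesicles, Syt1 at -1.46 ± 0.447, Stx1a at -1.25 ± 0.334 and Snap25 at -0.466 ± 0.121. Cyb561, the cytochrome that supplies reducing equivalents to Pam, was at 0.412 ± 0.319 at 2 h and 0.384 ± 0.319 at 6 h. Sytl4 (granuphilin), which docks granules, was at 0.862 ± 0.392 at 2 h. Of 16 genes of the proton pump that acidifies granules, 8 were above sham at 2 h and 7 at 6 h, with medians of -0.00794 and -0.0425, or 3 and 4 without sham replicate 1. Kalrn had deposited signals of 126.3 and 119.9 at 2 h, 287.4 and 615.6 at 6 h, and 1210.3 and 1194 in sham. This gene, whose protein binds the cytosolic tail of Pam, was the one furthest from sham in a list of 8 tested Pam partners and copper genes. It was at -3.07 ± 0.388 at 2 h and -1.58 ± 0.388 at 6 h (adjusted p = 0.0563 and 0.9997 in limma, or 0.0229 and 0.678 with the replicate number in the model). Of these 8 genes 4 were above sham at each time. Some but not all of 5 tested cortex and hippocampus neuron markers had a pattern like that of Kalrn. Camk2a was at -2.74 ± 0.53 at 2 h and -1.001 ± 0.53 at 6 h, and Tbr1 at -2.37 ± 0.56 and -1.44 ± 0.56. Neurod1 was further below sham at 6 h than at 2 h, at -0.333 ± 0.478 and -0.871 ± 0.478. Icam5 overlapped with sham at both times, at -0.265 ± 0.495 and -0.0322 ± 0.495. Cnih2 was above sham at each time. Whether the changes of Camk2a, Tbr1 and Kalrn have a common source was not tested.

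**Figure D4:**
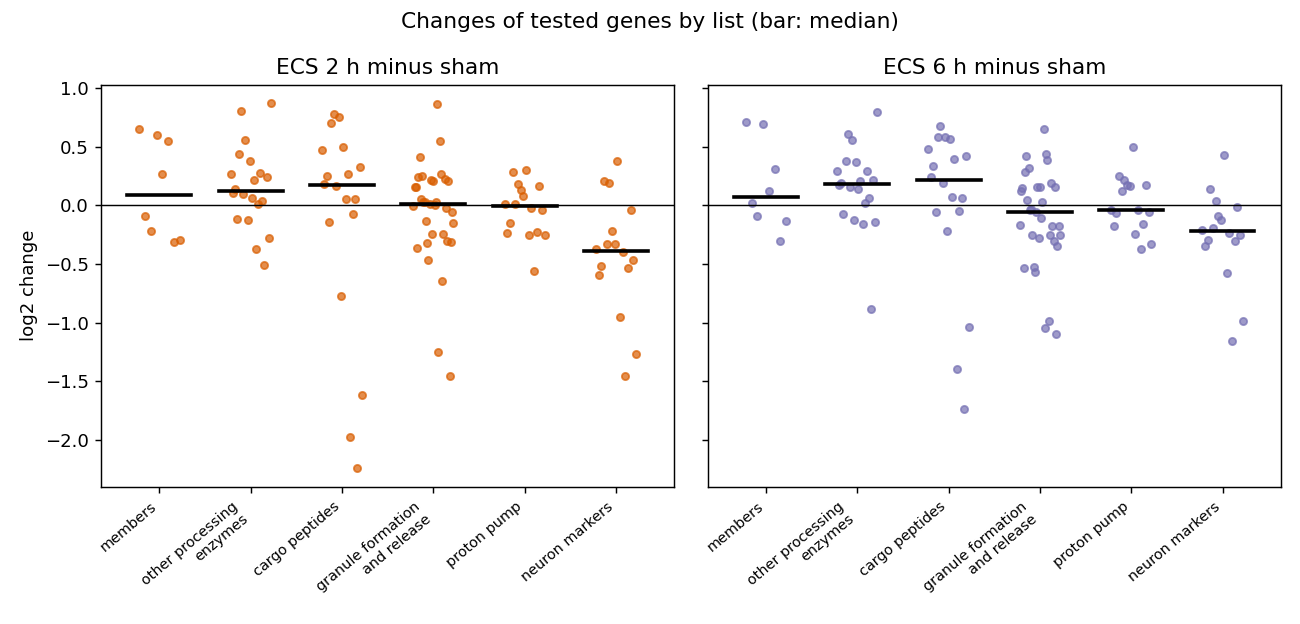
Log2 change of each tested gene (points) by list, for ECS 2 h minus sham (left) and ECS 6 h minus sham (right), with bars at the list median and the first list holding the 8 measured members. The medians of the processing enzymes and of the cargo peptides lie above 0, at 0.121 and 0.172 at 2 h, and that of the neuron markers lies at -0.389.

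Markers of cell types also differed between the groups, and in pooled tissue fewer cells of a type and less RNA per cell cannot be told apart. Of 16 tested neuron markers 13 were below sham at 2 h and 13 at 6 h. The 3 above at each time stand beside 50.9% and 49.6% of all tested probe sets. Their summed normalized signal was 16010 and 17200 at 2 h, 17210 and 19770 at 6 h, and 20960 and 20870 in sham. Over the same arrays the sum of the 8 members was 8705 and 9697 at 2 h, and 8927 and 10580 at 6 h. In sham it was 8477 and 9565, so the groups overlapped. These sums are linear, so the brightest gene weighs most, Snap25 among the neuron markers and Cpe among the members. Snap25 and Syt1 also belong to the list of granule formation and release. Of 8 cortex and hippocampus neuron markers on the array, Neurod2 and Prox1 were below the array median throughout, and the sum was 259.1 to 281.7 at 2 h, 365.5 to 719 at 6 h and 788.3 to 876 in sham. The sum of 12 astrocyte markers, cells that also make Cpe, was 8092 to 8441 at 2 h, 7767 to 8151 at 6 h and 7805 to 8799 in sham. The sum of 9 oligodendrocyte markers was 3196 to 3241 at 2 h, 2596 to 2852 at 6 h and 3546 to 3895 in sham. In this sum there was no overlap between either ECS group and sham. Of the 6 tested, 2 were above sham at 2 h and 0 at 6 h. The sum of 11 endothelial and mural markers was 1457 to 1568 at 2 h, 1091 to 1373 at 6 h and 1093 to 1328 in sham. That of 11 microglia and macrophage markers was 1425 to 1726, 1512 to 1755 and 1568 to 1824 in the same order. Of 5 ependymal and choroid markers on the array 4 were below the array median throughout. The sum of 9 PVN genes on the array was 5735 to 6156 at 2 h, 5804 to 6519 at 6 h and 4612 to 5154 in sham. Neither ECS group overlapped with sham, while the 2 ECS groups overlapped with each other. Oxt, Avp and Trh, the brightest of the 9 on every array, weigh most in this sum. Of the 8 tested PVN genes 5 were above sham at 2 h and 6 at 6 h. Arnt2 (-0.17 and -0.257) and Pou3f2 (-0.118 and -0.437) were below sham at both times, and Nr3c1 at 2 h only (-0.476). Sim1, Arnt2, Pou3f2 and Nr3c1 each overlapped with sham at both times. Oxt, Avp, Trh and Sst also belong to the list of cargo precursors. The part of these differences in the members' values was not tested.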

How the data were processed

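The authors deposited 1 table of MAS5 intensity values for all arrays, linear in scale, as the submitters' processing notes and the values show. The sources used here name no MAS5 version, scaling target or detection call. The 64 control probe sets were left out. Array medians differ, so log2(signal + 16) was quantile-normalized. Of 22626 probe sets, 12662 reached the median of the same array on 2 or more of the 6 arrays and were tested. Symbols came from the array annotation, which gives 1 symbol to 20380 probe sets, several to 691 and none to 1555. A limma model (limma 3.58.1, R 4.3.3) had a mean for each group and a variance trend, and its two-sided p-values were adjusted by Benjamini and Hochberg's method across the tested probe sets, with calls at 0.05. The fit was tested on simulated data. Adding 16 shrinks the changes of dim probe sets toward 0, and 2 arrays a group limit every value. Arrays are pools of separate animals, so p-values measure the spread between pools and runs.

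The design counted 9 genes, of which 8 could be measured. For a gene of a list the brightest probe set stood in. The members and lists were chosen with earlier results of these data known. Named genes are all members, the 3 probe sets nearest to each member, up to 4 genes of a list by smallest p, and Oxt, Avp, Trh, Sim1, Otp, Kalrn, Pcsk1n, Furin, Fos and Ptgds where a result turns on them. Cyb561, Arnt2, the remaining signal peptidase subunits and the dim marker genes were added once values were known. Replicate numbers pair the samples only as far as a shared run is implied: deviations of same-numbered arrays correlate at 0.152, 0.185 and 0.229 over probe sets. Alternatives covered the offset, scaling, filter, variance trend, array weights, a replicate block, the arrays in the fit, the mean over a gene's probe sets and leaving out each array. Leaving out arrays for the gene lists was chosen after seeing the data.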

Additional observations from a re-analysis of the deposited data

How the results depend on the processing

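No member passed limma in any of the 4 comparisons under the 17 alternatives run (16 for both ECS groups against sham, which already uses all arrays). Of 536 member values 510 kept their sign. The replicate block changed no member's call: the smallest adjusted p was 0.577 at 2 h, 0.678 at 6 h, 0.882 for 6 h against 2 h and 0.44 for both ECS groups, with 4, 0, 0 and 1 probe sets called on the whole array, against 0 without it. Median subtraction put the members' median at 0.186 (2 h), 0.284 (6 h), 0.195 (6 h against 2 h) and 0.235 (both ECS groups), and no scaling put it at 0.258, 0.289 and 0.163 for the last 3. The median of all probe sets moved too, to 0.101 at 6 h with median subtraction and to 0.16 for 6 h against 2 h with no scaling. With no scaling the share of all probe sets above sham was 41.3% at 2 h, 57.6% at 6 h and 66.3% for 6 h against 2 h. With median subtraction it was 60% at 6 h. Values of opposite sign under median subtraction were Cpe at 0.0505 (2 h) and 0.164 (both ECS groups), Chgb at 0.124 and Scg3 at 0.0164 (6 h). With no scaling they were Chgb at 0.0985 (6 h), Chga at 0.0879 and Scg5 at 0.062 (6 h against 2 h), and Cpe at 0.0914 (both ECS groups). The cause was not tested. Leaving out each array gave medians of -0.0693 to 0.0911 (2 h), -0.101 to 0.111 (6 h), -0.017 to 0.163 (6 h against 2 h) and -0.0766 to 0.0955 (both ECS groups). It turned the sign, as ranges, of Cpe (-0.184 to 5e-04) and Pam (-0.069 to 1.18) at 2 h, and of Chgb (-0.267 to 0.0855), Cpe (-0.0982 to 0.136) and Pam (-0.314 to 0.937) at 6 h. For 6 h against 2 h it did so for Cpe (-0.0113 to 0.229), Chga (-0.21 to 0.0395), Pam (-0.656 to 0.164), Pcsk1 (-0.197 to 0.295), Scg5 (-0.302 to 0.0119) and Scg2 (-0.134 to 0.351). For both ECS groups it did so for Cpe (-0.0926 to 0.0215) and Pam (-0.191 to 1.06). With the sign kept, leaving out an array gave Scg5 0.114 to 0.425 at 2 h and 0.003 to 0.247 at 6 h, Chga -0.373 to -0.0696 and -0.456 to -0.152, and Scg3 -0.187 to -0.0799 at 6 h. Scg2 ran from 0.00539 to 1.21 at 2 h and from 0.114 to 1.32 at 6 h. Where an array is left out, the lone array of its group is assumed to vary like the others.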
